A study of Mus musculus with 17 samples.

Results

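The step from pre-leptotene (PreL) to leptotene/zygotene (LZ) spermatocytes was followed in wild-type (WT) mice, with 5 of the 17 RNA-seq libraries of the series: PreL replicates 1, 2 and 4 and LZ replicates 2 and 3. The members were the columns of these 5 libraries in the deposited table, and libraries of the *Nat10* mutant were not used. WT spermatogonia (SPG, 3 libraries) were set beside them as the stage before. All 3 groups were C57BL/6 mice (C57BL/6J in the study's methods) of wild-type genotype, and no treatment is named. The age of the animals, the number pooled per library, and whether the wild-type mice carried a floxed *Nat10* allele or the *Stra8*-driven Cre of the mutant are not given in the sources used here. Cells were sorted from digested testes by their Hoechst and propidium iodide fluorescence, which reads DNA content and chromatin state, and RNA was amplified by Smart-seq2, which primes on the poly(A) tail and does not keep the strand. The study calls its libraries biological replicates, but the sources used here do not say whether they came from separate animals, so the p-values measure the spread between these libraries, which may be technical in part.

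Male germ cells enter meiosis in the pre-leptotene stage, when retinoic acid induces *Stra8* and the cells pass through their last round of DNA replication. In leptotene the chromosomes form protein axes and SPO11 cuts their DNA. In zygotene recombinases such as DMC1 search for the homologous partner, and the synaptonemal complex begins to join the pairs. In pachytene, the stage that follows, the X and Y chromosomes are silenced in the sex body and transcription of the autosomes rises, with many genes for the future flagellum and for sperm metabolism switched on long before the proteins are needed.

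Promoter sequences are shown for 2 gene groups whose levels moved in opposite directions, the axoneme genes, nearly all of which rose, and the E2F and DNA replication genes, many of which fell. The axoneme is the microtubule core of the sperm tail. The windows run from 250 bases before to 50 bases after the transcript start, are taken from RefSeq for GRCm38.p6 and are printed 5′ to 3′ on the strand of the gene. A gene can have several windows. The first that holds the motif is shown, and distances refer to the transcript start of that window. In the axoneme genes the capitals mark a match to the X-box, the palindrome bound by RFX factors such as RFX2. *Dnaic1* and *Dnaic2* code for intermediate chains of the outer dynein arm, *Tekt2* for a tektin that lies along the doublet microtubules, and *Hydin* for a protein of the central pair. Their windows lie at chr4:41569544-41569843 (plus strand), chr11:114727169-114727468 (plus strand), chr4:126325639-126325938 (minus strand) and chr8:110266727-110267026 (plus strand), and the X-box begins 19, 33, 29 and 21 bases before the transcript start.
Dnaic1: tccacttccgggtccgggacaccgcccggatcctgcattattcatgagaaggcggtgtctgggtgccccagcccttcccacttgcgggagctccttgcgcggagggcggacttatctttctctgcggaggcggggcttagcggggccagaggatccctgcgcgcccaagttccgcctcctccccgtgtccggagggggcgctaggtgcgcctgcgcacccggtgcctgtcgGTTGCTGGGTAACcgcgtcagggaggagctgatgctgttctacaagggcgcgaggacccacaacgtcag
Dnaic2: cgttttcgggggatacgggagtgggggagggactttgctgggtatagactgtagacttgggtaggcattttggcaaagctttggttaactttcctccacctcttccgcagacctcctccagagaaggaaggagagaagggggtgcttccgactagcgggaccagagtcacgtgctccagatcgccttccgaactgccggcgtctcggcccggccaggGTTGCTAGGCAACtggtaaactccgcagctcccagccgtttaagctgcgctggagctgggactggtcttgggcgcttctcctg
Tekt2: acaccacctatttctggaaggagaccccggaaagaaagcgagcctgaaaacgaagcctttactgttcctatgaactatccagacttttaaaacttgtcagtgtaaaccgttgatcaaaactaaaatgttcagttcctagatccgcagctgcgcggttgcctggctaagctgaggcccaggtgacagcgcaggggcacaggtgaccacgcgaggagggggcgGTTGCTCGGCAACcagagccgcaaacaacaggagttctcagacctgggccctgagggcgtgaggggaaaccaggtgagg
Hydin: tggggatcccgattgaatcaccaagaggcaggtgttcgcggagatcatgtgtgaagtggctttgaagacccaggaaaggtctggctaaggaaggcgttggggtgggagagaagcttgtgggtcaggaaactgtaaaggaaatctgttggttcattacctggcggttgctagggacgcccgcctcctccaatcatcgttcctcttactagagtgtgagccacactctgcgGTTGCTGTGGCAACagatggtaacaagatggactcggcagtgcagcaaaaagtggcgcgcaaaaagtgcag

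In the next windows the capitals mark a match to the E2F motif GCGGGAA on either strand, so that TTCCCGC is the same motif read from the other strand. *Cdc6* codes for a protein that loads the MCM helicase at origins, *Wdhd1* for a replisome component that ties DNA polymerase alpha to the helicase, *Prim1* for the primase subunit that makes the RNA primer, and *E2f7* for a repressor of the E2F family. *Rad51ap2*, a gene of meiotic recombination, carries the motif too and moved the other way. The windows lie at chr11:98907901-98908200 (plus strand), chr14:47276808-47277107 (minus strand), chr10:128014965-128015264 (plus strand), chr10:110745189-110745488 (plus strand) and chr12:11455805-11456104 (plus strand).
Cdc6: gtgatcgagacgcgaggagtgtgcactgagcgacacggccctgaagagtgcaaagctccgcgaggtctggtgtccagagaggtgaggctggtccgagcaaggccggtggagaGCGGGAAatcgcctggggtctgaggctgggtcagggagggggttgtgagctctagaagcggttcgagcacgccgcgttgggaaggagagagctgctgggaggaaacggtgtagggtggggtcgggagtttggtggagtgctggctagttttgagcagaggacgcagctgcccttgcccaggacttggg
Wdhd1: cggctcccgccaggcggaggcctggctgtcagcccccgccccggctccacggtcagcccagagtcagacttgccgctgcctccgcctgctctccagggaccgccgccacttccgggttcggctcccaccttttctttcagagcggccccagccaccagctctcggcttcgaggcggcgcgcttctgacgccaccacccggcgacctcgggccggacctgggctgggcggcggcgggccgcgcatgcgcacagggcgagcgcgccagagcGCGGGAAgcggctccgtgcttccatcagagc
Prim1: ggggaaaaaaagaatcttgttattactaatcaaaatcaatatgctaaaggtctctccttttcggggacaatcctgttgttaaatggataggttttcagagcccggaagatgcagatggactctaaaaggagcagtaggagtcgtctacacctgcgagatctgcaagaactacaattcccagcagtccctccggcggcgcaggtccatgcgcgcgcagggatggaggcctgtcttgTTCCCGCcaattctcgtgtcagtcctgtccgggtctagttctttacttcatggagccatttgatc
E2f7: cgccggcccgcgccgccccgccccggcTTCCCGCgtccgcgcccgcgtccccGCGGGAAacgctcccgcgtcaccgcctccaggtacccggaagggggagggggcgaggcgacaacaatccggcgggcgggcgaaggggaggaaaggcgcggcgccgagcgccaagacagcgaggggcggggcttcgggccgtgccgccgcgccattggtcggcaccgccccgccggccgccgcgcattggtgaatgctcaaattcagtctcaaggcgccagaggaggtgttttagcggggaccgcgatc
Rad51ap2: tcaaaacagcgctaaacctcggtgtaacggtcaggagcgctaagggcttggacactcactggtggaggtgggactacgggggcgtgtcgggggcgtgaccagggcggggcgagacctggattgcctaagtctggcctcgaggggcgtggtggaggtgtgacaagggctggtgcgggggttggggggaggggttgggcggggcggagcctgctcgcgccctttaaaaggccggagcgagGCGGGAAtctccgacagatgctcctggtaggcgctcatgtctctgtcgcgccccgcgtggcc

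The libraries held 10574858 to 10724364 recovered reads in PreL and 13820953 and 13666762 in LZ, with at least 1 read for 14671 to 15721 genes in PreL and for 17589 and 17482 in LZ. Values below are normalised values, the deposited ERCC-calibrated value of a library divided by its size factor, on which 1 read is worth 2.24 to 2.53 in PreL and 1.46 and 1.89 in LZ. Reads were made by PCR without molecular identifiers, so counts of reads carry more error than their number shows. The LZ libraries differed from each other in markers of other cells. Markers of Sertoli cells, the somatic nurse cells of the tubule, summed to 11673, 13251 and 13998 in PreL 1, 2 and 4 and 79870 and 25951 in LZ 2 and 3, and all 20 of the markers tested were higher in LZ 2 than in LZ 3. Markers of pachytene and diplotene cells, the stages after LZ, summed to 101930, 135850 and 93102 in PreL 1, 2 and 4 and 223590 and 435790 in LZ 2 and 3, and 25 of 27 were higher in LZ 3. Of these sums, *Calm2*, a member that was not called, held 77368, 85288 and 72124 in PreL and 87813 and 119170 in LZ. The sums thus understate how far the other members differed between the stages. PreL 2 was the highest PreL library for 1513 of the 2585 genes called higher in LZ. The study also staged sorted cells by immunofluorescence and counted most cells of the LZ sort as LZ and few as pachytene, a check not tied to these libraries. Whether the libraries held cells of a later stage or somatic cells, or a different amount of RNA per cell, cannot be told apart in bulk RNA.

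**Figure D1:**
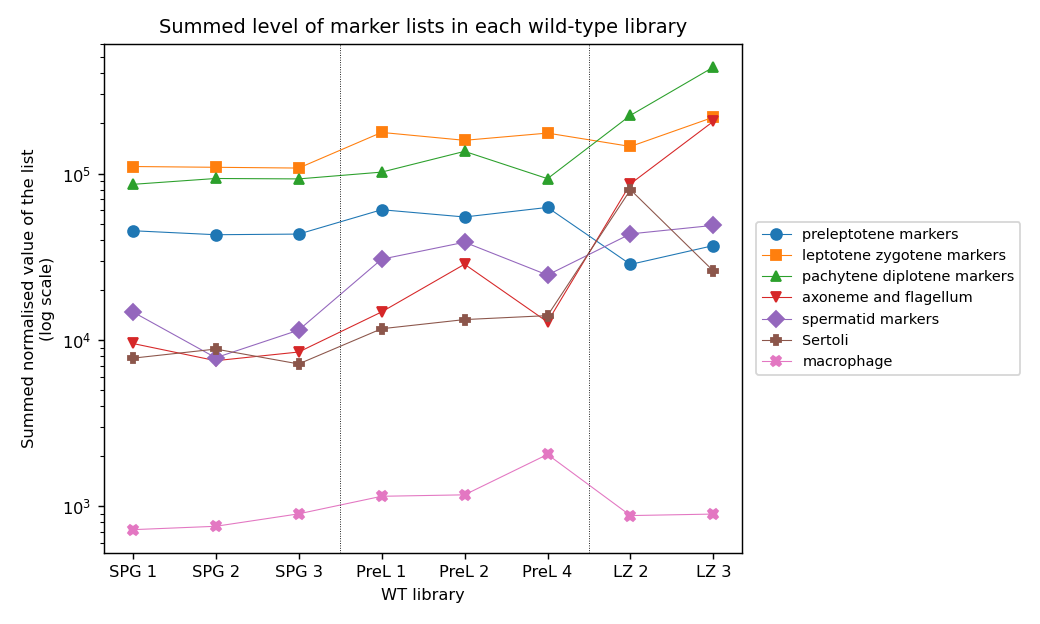
Summed normalised values of 7 marker lists (log scale) in each WT library, with SPG, PreL and LZ separated by dotted lines. Pachytene/diplotene and axoneme genes are highest in LZ 3, with sums of 435790 and 205870, and Sertoli markers are highest in LZ 2, with 79870. *Calm2* makes up the larger part of the pachytene/diplotene sums in SPG and PreL.

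Of 13759 genes tested with limma, 2585 were called higher in LZ, which is 18.8% of the genes tested, and 1073 were called lower, which is 7.8%. Counts of called genes in the lists below are to be read beside these shares. Genes had to average 10 reads or more over these 5 libraries, so a scarce gene could pass through a single stage. The direction of such a gene was then set in part by the filter. Called means that the adjusted p was under 0.05 and the log2 fold change beyond 1 in size, on log2(normalised value + 10), a scale on which the fold change of low genes is understated. Every direction below is relative to the other transcripts of a library. The PreL and LZ libraries did not overlap for 62.9% of all genes tested, 99.96% of the higher genes and 100% of the lower genes. A lack of overlap in a called gene thus adds nothing to its call. The ERCC-calibrated values themselves totalled 13262500, 17184100 and 16402000 in PreL 1, 2 and 4 and 44918100 and 54667000 in LZ 2 and 3, a ratio of the means of 3.19. By an exact permutation test, two-sided, p = 0.1, and this design of 3 libraries against 2 cannot reach a lower p. On that scale the median log2 fold change of all genes moved from 0.13 to 1.86, with 10992 genes higher and 15 lower, so genes described as lower took up a smaller part of the library and, with few exceptions named below, were not called lower per unit of spike-in and cell input. Without LZ 3 the number of higher genes was 797, of which 748 were among the 2585, and without LZ 2 it was 1890. Lower genes numbered 919 without LZ 3 and 878 without LZ 2.

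**Figure D2:**
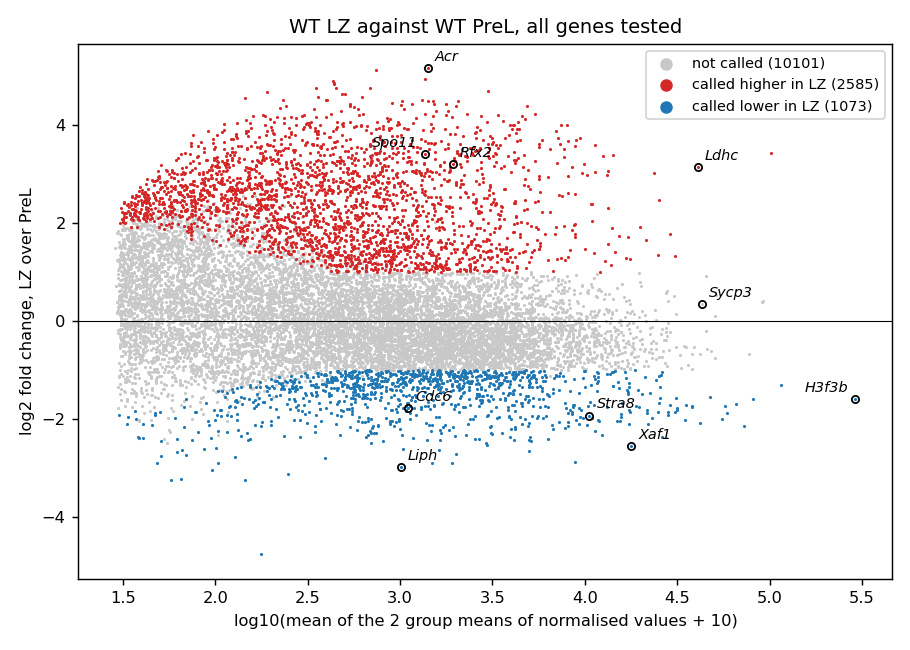
Log2 fold change of LZ over PreL against the mean level (log10 of the mean of the group means of normalised values + 10) for the 13759 genes tested, red where called higher, blue where called lower and grey where not called. The 2585 higher genes reach larger changes than the 1073 lower genes, with *Acr* at 5.16 and *Liph* at -2.98 among those circled.

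*Stra8*, the retinoic acid target that starts meiosis, marked the PreL libraries. It stood at 16202, 15318 and 18727 in PreL 1, 2 and 4 and 4319 and 4456 in LZ 2 and 3 (log2 fold change -1.93, SE 0.18, adjusted p = 0.00251), after 9226, 7246 and 8077 in the SPG libraries. PreL was thus the highest of the 3 stages for this gene (chromosome 6, 34920163 to 34939344, GRCm38) and no library of one stage overlapped with those of another. Of the 8 pre-leptotene markers tested only *Stra8* was called, and 3 were lower without PreL 2 or without LZ 3 and 2 without PreL 4 or without LZ 2. *Kit*, the receptor of differentiating spermatogonia, *Pcna*, the clamp of the replication fork, and *Mcm5*, a subunit of the replicative helicase, had log2 fold changes of -0.98, -0.98 and -0.75, with LZ below PreL in every library but a fold under the threshold. *Rec8*, which codes for a meiotic cohesin, stood at 338, 327 and 293 in PreL and 308 and 276 in LZ against 965, 1000.3 and 638 in SPG, and its PreL and LZ ranges overlapped. On the calibrated values without rescaling, none of the pre-leptotene markers was called lower.

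Of the 12 regulators of meiotic entry tested, *Stra8* was the one called with all libraries, and 3 were lower without LZ 2 or without LZ 3 and 2 without PreL 1 or without PreL 2, with 1 higher without LZ 2. The other members had log2 fold changes between -0.98 for *Kit* and 0.82 for *Tcfl5*, a bHLH factor of spermatocytes. *Dmrt1*, which holds spermatogonia back from meiosis, had -0.98 (adjusted p = 0.0125). The RNA-binding proteins MEIOC and YTHDC2 clear mitotic transcripts at meiotic entry, and their genes *Gm1564* (*Meioc*) and *Ythdc2* had -0.74 and -0.67. *Dazl*, a translational activator of germ cells, had -0.60. The retinoic acid genes gave 3 higher and 1 lower of 18 tested, shares near the 18.8% and 7.8% of all genes tested, the lower gene being *Stra8* and the higher ones *Rdh11*, a retinol dehydrogenase (3.20), *Aldh1a2*, which makes retinoic acid from retinal (1.07), and *Dhrs3*, a retinal reductase with 7, 0 and 0 reads in PreL and 57 and 23 in LZ.

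Many genes of S phase fell in LZ when set against the library's other transcripts. Of 52 DNA replication genes tested, 22 were lower and 1 was higher, with a median log2 fold change of -0.87 against 0.13 for all genes tested. On the calibrated values without rescaling the direction turned: none was lower, 25 were higher and the median was 0.96. *Cdc6* stood at 1442, 1677 and 1976 in PreL 1, 2 and 4 and 486 and 487 in LZ 2 and 3 (log2 fold change -1.77, SE 0.24, adjusted p = 0.00251), with the SPG libraries at 2237, 2054 and 1989. All PreL libraries lay below all SPG libraries, but the larger drop came between PreL and LZ, and the LZ libraries nearly coincided. *Tyms*, thymidylate synthase, stood at 3218, 3261 and 3579.7 in PreL and 997 and 976 in LZ (log2 fold change -1.75, SE 0.20, adjusted p = 0.00251). *Wdhd1* stood at 7639, 8809.6 and 9072 in PreL and 2624 and 3009.8 in LZ (log2 fold change -1.59, SE 0.19, adjusted p = 0.00251). Both genes held separate ranges in the 2 stages. The other lower members included the fork protector *Clspn* (-1.50), the DNA ligase *Lig1* (-1.49), the flap nuclease *Fen1* (-1.40), the licensing factor *Cdt1* (-1.33), the polymerase epsilon subunits *Pole* (-1.26) and *Pole2* (-1.39), the primase *Prim1* (-1.19), the ribonucleotide reductase subunit *Rrm2* (-1.13) and the helicase subunits *Mcm2*, *Mcm3*, *Mcm4* and *Mcm6*, which had -1.23, -1.14, -1.37 and -1.01. *Mcm7*, of the same hexamer, had -0.13 and did not pass the test. *Chaf1b*, a subunit of the chromatin assembly factor CAF-1, was the member that rose, from 119, 80.0 and 167 in PreL to 368 and 502 in LZ (log2 fold change 1.79, SE 0.44, adjusted p = 0.0150), while *Chaf1a*, which codes for its partner subunit, had 0.37. *Chaf1b* was not called without LZ 2 or without LZ 3.

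Several transcription factors of the G1/S switch fell with the replication genes. The activator *E2f2* stood at 763, 848 and 543 in PreL 1, 2 and 4 and 133 and 187 in LZ 2 and 3 (log2 fold change -2.09, SE 0.35, adjusted p = 0.00339). *E2f1* stood at 543, 628 and 962 in PreL and 186 and 168 in LZ (log2 fold change -1.91, SE 0.35, adjusted p = 0.00477) and the repressor *E2f7* at 610.5, 729 and 616 in PreL and 135 and 213 in LZ (log2 fold change -1.88, SE 0.34, adjusted p = 0.00452). All 3 had LZ libraries below every PreL library, while *E2f8*, the close relative of *E2f7*, had 0.53 and was not called. *Ccne2*, cyclin E2, *Ccnd1*, cyclin D1, *Cdc25a*, the phosphatase that activates CDK2, and *Mybl2*, a factor of the proliferating cell, were lower as well, with -1.39, -1.28, -1.19 and -1.27. *Ccnd2*, cyclin D2, was higher (1.76) but not called without PreL 4 or without LZ 2, and *Ccnd3*, cyclin D3, had 1.16 and was not called. Genes of the G2/M transition and mitosis moved in both directions. *Aurka*, the kinase of the spindle poles, rose from 1047, 959 and 558 in PreL to 3709 and 6692 in LZ (log2 fold change 2.58, SE 0.34, adjusted p = 0.00251). *Plk1*, a mitotic kinase, *Kif20a*, a kinesin of cytokinesis, *Cdc20*, the activator of the anaphase-promoting complex, and the B cyclins *Ccnb1* and *Ccnb2* rose by 1.44, 1.44, 1.39, 1.31 and 1.12 on the log2 scale. *Plk1*, *Kif20a* and *Ccnb2* were not called without LZ 3. *Mki67*, the proliferation marker, and *Incenp*, of the chromosomal passenger complex, were lower (-1.34 and -1.22), and the other mitotic genes of the list were not called, among them *Top2a*, topoisomerase II alpha, *Ccna2*, cyclin A2, and *Bub1*, a checkpoint kinase, with -0.82, -0.75 and -0.23. In all, 7 of 42 cell cycle genes were higher and 9 lower, against 18.8% and 7.8% of all genes tested. None of the lower ones was called lower on the calibrated values without rescaling. Processed copies of such genes can share reads with them, and a count of uniquely mapped reads can split these.

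The E2F motif was found in the promoter windows of 21 of the 42 DNA replication genes that had a RefSeq window. It was in 9.67% of the 10800 tested genes matched and in 4.6% of all 32851 windows of this length. A gene counted if any of its windows held it, while the 4.6% is a share of single windows. Among the 21, *Mcm3*, *Cdc6*, *Cdt1*, *Prim1*, *Pold1* and *Wdhd1* were lower and *Chaf1b* was higher. The others, the larger part, were not called. Over the whole table holders of the motif were called lower slightly more often and higher less often. Of the 1044 tested genes with it, 13.8% were called higher and 9.2% lower, and of the 9756 without it 19% and 7.65%. The match lies 138 bases before the transcript start of the printed window in *Cdc6*, at base 20 of the transcript in *Wdhd1*, and 15 bases before the start in *Prim1*. The annotated *Cdc6* gene begins at 98907801, ahead of the printed window, so its match lies inside the gene by that annotation. *E2f7* holds 2 matches, 223 and 198 bases before its start. *Rad51ap2* holds it 12 bases before its start and rose. Of the strand invasion genes with a window 9 of 21 carried the motif, and of the leptotene/zygotene markers 7 of 17. Of the 32 cell cycle genes with a window 1 carried it, which is 3.12%, and that gene was *E2f7*. A match in these windows is a description of the letters, not a site of binding.

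**Figure D3:**
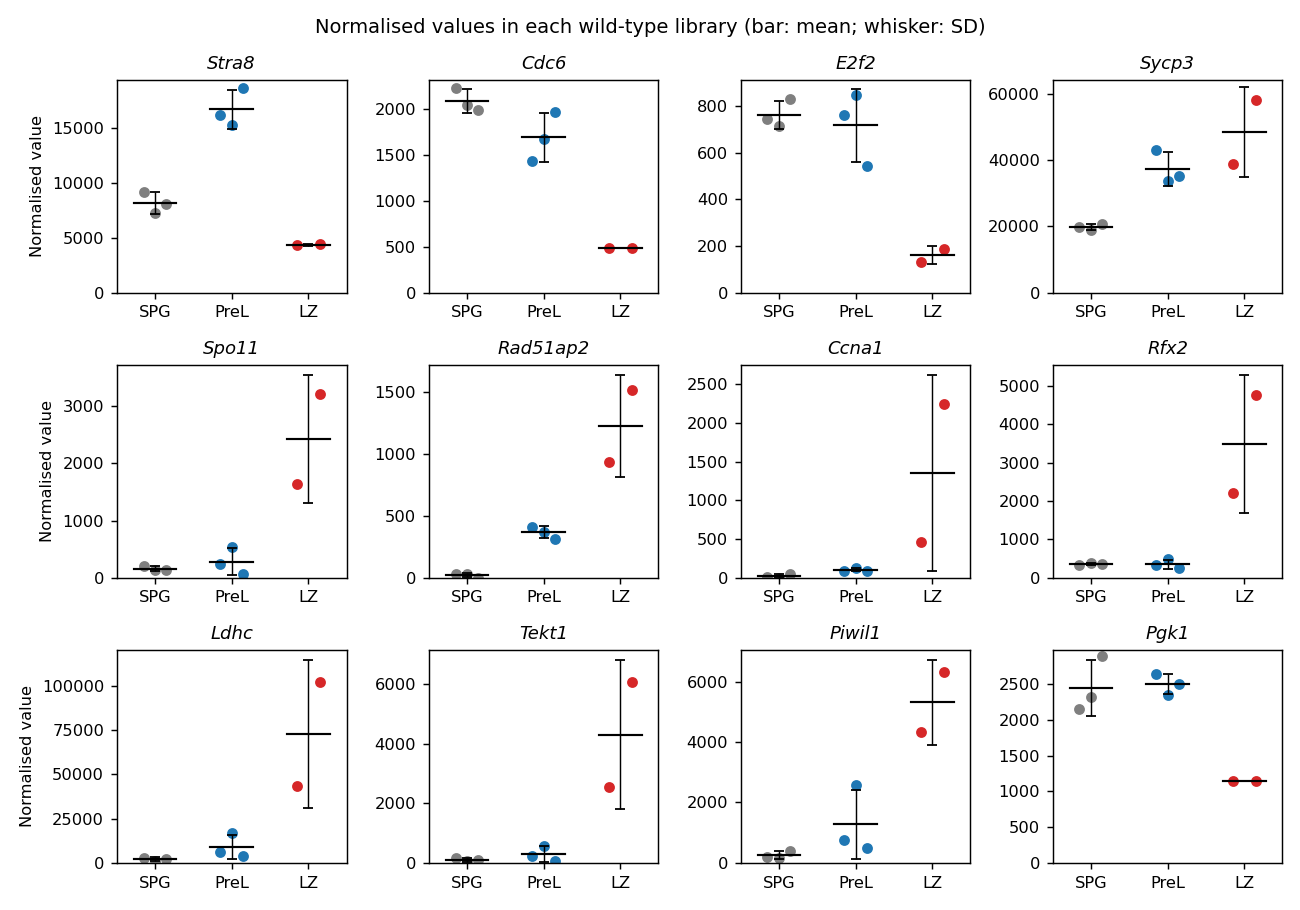
Normalised values of 12 genes in the WT SPG (grey), PreL (blue) and LZ (red) libraries, 1 point a library, with the mean as a bar and the SD as a whisker (n = 3, 3 and 2), each panel on its own linear axis from 0. *Stra8*, *Cdc6*, *E2f2* and *Pgk1* are lowest in LZ, and *Ccna1*, *Ldhc* and *Tekt1* are highest in LZ 3.

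The structural genes of the meiotic chromosome were expressed before LZ and moved little. Of 11 axis and synaptonemal complex genes tested, none was higher and 2 were lower. *Sycp3*, the axis protein used to stage spermatocytes, stood at 43068, 33710 and 35102 in PreL 1, 2 and 4 and 38756 and 58043 in LZ 2 and 3 (log2 fold change 0.36, SE 0.23, adjusted p = 0.262) and already at 19750, 18893 and 20630 in SPG. *Sycp1*, the transverse filament, stood at 28320, 27648 and 32407 in PreL and 21130 and 29662 in LZ (log2 fold change -0.23, SE 0.21, adjusted p = 0.417), with SPG at 22685, 26396 and 24697. For both genes the PreL and LZ ranges overlapped. *Sycp2*, the partner of SYCP3, and *Hormad1*, a HORMA-domain protein of unsynapsed axes, had LZ above PreL in every library but were not called, with log2 fold changes of 0.67 and 0.36. The lower genes were *Syce2*, a central element protein (-1.20), which ranged from 23881 to 47832 in PreL, and *Trip13*, the ATPase that removes HORMAD proteins (-1.08). Neither was lower on the calibrated values without rescaling, and neither was called without LZ 3, while 1 axis gene was lower without PreL 4 or without LZ 2. None of the 4 meiotic cohesin genes was called (1 was lower without LZ 3), and *Smc1b* had -0.72 and *Stag3* -0.08.

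Among 11 genes of double-strand break formation, the nuclease gene itself rose. *Spo11* stood at 242, 535 and 65.7 in PreL 1, 2 and 4 and 1637 and 3219 in LZ 2 and 3 (log2 fold change 3.40, SE 0.70, adjusted p = 0.00722), after 208, 131 and 129.7 in SPG (chromosome 2, 172977700 to 172993576). Its PreL libraries were spread widely, and both LZ libraries exceeded all of them. Without LZ 3 *Spo11* was not called. The genes of the proteins that recruit SPO11 to the axis fell or were not called. *Mei4* stood at 845, 703 and 897 in PreL and 363 and 353 in LZ (log2 fold change -1.16, SE 0.28, adjusted p = 0.0132) and *2410076I21Rik* (*Rec114*) at 3044, 3256 and 3089.6 in PreL and 1191 and 1418 in LZ (log2 fold change -1.26, SE 0.20, adjusted p = 0.00297), both lower in LZ, and *Ccdc36* (*Iho1*) had -0.58. *Gm960* (*Top6bl*), which codes for the partner of SPO11, stood at 262, 172 and 182 in PreL and 245 and 423 in LZ, a range that overlapped between stages (log2 fold change 0.65, SE 0.42, adjusted p = 0.249). *Prdm9*, the methyltransferase that places the breaks at hotspots, had -0.73 and *Zcwpw1*, a reader of its marks, -0.53. On the calibrated values without rescaling neither *Mei4* nor *2410076I21Rik* was lower, and *Mei4* was not called without PreL 1 or without LZ 3. Reads of *2410076I21Rik* cannot be told apart from those of *Nptn* over 257 bases of overlapping exons, since the library method does not keep the strand. Among other genes named here the same holds for *Rad54l* with *Lrrc41* (721 bases), *Ovol1* with *Gm31166* (690) and *Sycp3* with *Chpt1* (420). It also holds for *Tbpl1* with *Slc2a12* (407) and *Psmc3ip* with *Mlx* (385), and not every such overlap is listed.

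Genes of strand invasion moved in both directions. Of 24 tested, 3 were higher and 4 were lower, against 18.8% and 7.8% of all genes tested. The higher ones are known from meiotic recombination, but so are *Dmc1*, *Spata22* and *6030422M02Rik* (*Mcmdc2*), which were not called. *Rad51ap2* stood at 414, 371 and 316 in PreL 1, 2 and 4 and 936 and 1516 in LZ 2 and 3 (log2 fold change 1.68, SE 0.31, adjusted p = 0.00491) and at 27.4, 32.2 and 2.09 in SPG. *4930528F23Rik* (*Meiob*), a single-strand DNA-binding protein of meiosis, stood at 899, 509 and 765 in PreL and 1754 and 2356 in LZ (log2 fold change 1.51, SE 0.30, adjusted p = 0.00603). Both genes thus stepped up from SPG to PreL and again to LZ. *4930432K21Rik* (*Brme1*), which codes for a partner of the meiotic BRCA2 adaptor, rose by 1.33 on the log2 scale. The lower genes included *Rad54l*, a motor protein of homologous recombination (-1.50), *Brca1* (-1.38) and the replication protein A subunit *Rpa3* (-1.33). *Dmc1*, the meiotic recombinase, stood at 4095, 3201 and 3696 in PreL and 2003 and 2789 in LZ and was not called (log2 fold change -0.62, SE 0.22, adjusted p = 0.0546), with its SPG values at 1658, 1962 and 1876. Its accessory factors *Psmc3ip* (*Hop2*) and *Mnd1* had 0.54 and 0.71. Without LZ 3 none of the higher strand invasion genes was called, and without rescaling none of the lower ones was.

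Of 13 genes of crossover formation tested, 2 were higher and 1 was lower, shares near the 18.8% and 7.8% of all genes tested. *Cntd1*, a cyclin-like protein that limits recombination sites to crossovers, stood at 566, 528 and 303 in PreL 1, 2 and 4 and 1735 and 2441 in LZ 2 and 3 (log2 fold change 2.17, SE 0.33, adjusted p = 0.00280). *Prr19*, its binding partner, stood at 44.7, 38.8 and 40.4 in PreL and 211 and 852 in LZ (log2 fold change 3.09, SE 0.61, adjusted p = 0.00631). In both genes every LZ library exceeded every PreL library, though *Cntd1* shares 1297 bases of exons with *Becn1* and *Prr19* was not called without LZ 3. *Msh4* and *Msh5*, which form the clamp on recombination intermediates, had 0.80 and 0.58, and *Mlh3*, which acts in crossover resolution, 1.18. None of these 3 passed the test. *Tex11*, an X-linked gene of crossover formation, fell from 11774, 12320 and 15774 to 5354 and 7989 (log2 fold change -1.01, SE 0.23, adjusted p = 0.0108), a direction that turned on the calibrated values without rescaling. Without PreL 4 or without LZ 2 no crossover gene was lower, and without PreL 1 or without LZ 3 there were 2. Of 8 genes that hold telomeres to the nuclear envelope, 3 were higher: *Ccdc155* (*Kash5*), the link to dynein in the cytoplasm (2.06), *Syne2*, a nesprin (1.91), and *Fbxo47*, a telomere-bound F-box protein (1.66). *Sun1*, the inner membrane partner of KASH5, had -0.60. With LZ 2, LZ 3 or PreL 2 left out, only *Ccdc155* of these was called.

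**Figure D4:**
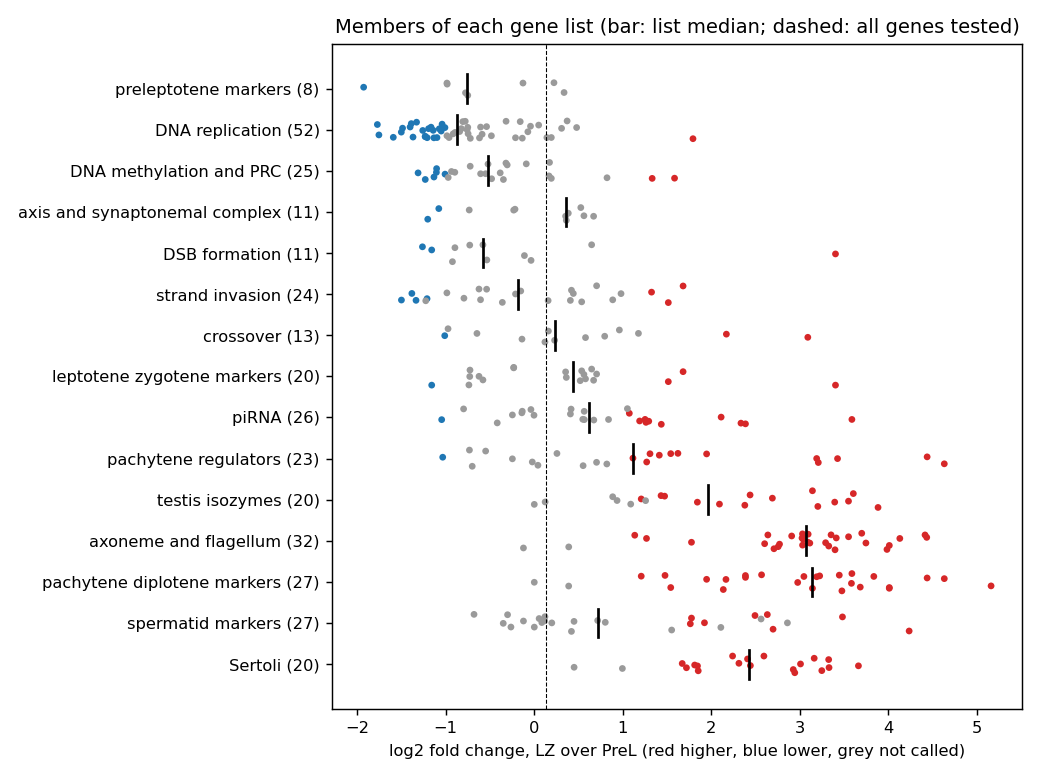
Log2 fold change of LZ over PreL for each tested member of 15 gene lists (number tested in brackets), red where called higher, blue where called lower and grey where not called, with the list's median as a bar and the median of all genes tested (0.13) as a dashed line. DNA replication genes lie mostly left of the line with a median of -0.87, and pachytene/diplotene markers and axoneme genes lie to the right with medians of 3.14 and 3.07.

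The leptotene/zygotene markers as a list changed little between the stages. Of 20 tested, 3 were higher (*Spo11*, *Rad51ap2* and *4930528F23Rik*) and 1 was lower (*Mei4*), with a median of 0.44. These shares are no larger than the 18.8% and 7.8% of all genes tested. None was higher and 2 were lower without LZ 3, and none was lower without PreL 1. The list summed to 176560, 158270 and 174910 in PreL 1, 2 and 4 and 145350 and 217890 in LZ 2 and 3, against 110150, 108970 and 107820 in SPG. All 3 PreL sums thus lay above all SPG sums, and LZ 2 lay below the PreL libraries. Most pachytene/diplotene markers rose: 25 of 27 tested were higher, with a median of 3.14. They were 15 of 27 without LZ 3 and 23 without LZ 2. *Tcte1*, counted among the 25, passed the filter through LZ, with 0, 1 and 0 reads in PreL and 24 and 113 in LZ.

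Of 23 regulators of the pachytene stage tested, 12 were higher and 1 was lower (*Taf7l*, not called without PreL 4 or without LZ 2), with a median of 1.11, and 5 were higher without LZ 3. *Rfx2*, the factor of ciliary and flagellar genes, stood at 326, 477 and 255 in PreL 1, 2 and 4 and 2204 and 4760.1 in LZ 2 and 3 (log2 fold change 3.21, SE 0.38, adjusted p = 0.00251) and at 336, 373 and 364 in SPG. The gene was flat from SPG to PreL and then rose in both LZ libraries. *Ovol2*, a zinc finger factor, stood at 47.0, 53.3 and 10.1 in PreL and 526 and 1512 in LZ (log2 fold change 4.44, SE 0.66, adjusted p = 0.00274), and *Ovol1*, its relative, rose by 1.95 on the log2 scale. *Pou5f2*, a POU factor of spermatocytes, stood at 8.95, 75.1 and 10.1 in PreL and 398 and 1518 in LZ (log2 fold change 4.63, SE 0.80, adjusted p = 0.00379). In *Pou5f2* and *Ovol2* the PreL values were low, and LZ 3 exceeded LZ 2 by more than the whole PreL range. *Kctd19* and *Zfp541* code for partners in a histone deacetylase complex of meiotic prophase and rose by 3.43 and 1.41. *Ccna1*, the cyclin required to leave meiotic prophase, stood at 91.7, 131 and 90.9 in PreL and 461 and 2249 in LZ (log2 fold change 3.19, SE 0.60, adjusted p = 0.00516), and it shares 185 bases of exons with *4931419H13Rik*. The bromodomain gene *Brdt*, the cAMP-responsive factor *Crem* and the TBP-like factor *Tbpl1* rose by 1.27, 1.62 and 1.54. *Mybl1*, which drives many pachytene genes, had 0.55 and was not called, and *Rfx3*, the relative of *Rfx2* known from cilia, had -0.02.

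Nearly all tested genes of the axoneme and flagellum list rose. Of 32 axoneme and flagellum genes tested, 30 were higher and none was lower, with a median of 3.07. Their sum was 14730, 28498 and 12816 in PreL 1, 2 and 4 and 86709 and 205870 in LZ 2 and 3, so that LZ 3 held more than LZ 2 and PreL 2 held more than the other PreL libraries. LZ 3 exceeded LZ 2 for 31 of the 32 genes. Without LZ 3, 13 were called higher, with a median of 2.46, and without PreL 2, 30 were. *Spag6*, a protein of the central pair, stood at 288, 749 and 260.2 in PreL 1, 2 and 4 and 3602 and 11148 in LZ 2 and 3 (log2 fold change 4.01, SE 0.54, adjusted p = 0.00251). *Lrrc50* (*Dnaaf1*), which assembles dynein arms in the cytoplasm, stood at 353, 945 and 235 in PreL and 4317 and 13655 in LZ (log2 fold change 4.13, SE 0.59, adjusted p = 0.00255), with 584 bases of exons shared with *Taf1c*. Both genes were higher in each LZ library than in any PreL library. The dynein heavy chains *Dnahc2*, *Dnahc8* and *Dnahc17* rose by 3.98, 3.70 and 4.41, the radial spoke genes *Rsph1* and *Rsph9* by 3.40 and 3.03, and the assembly genes *Ccdc39* and *Ccdc40* by 3.02 and 3.09. The intraflagellar transport genes *Ift88* and *Ift140* rose by 1.14 and 2.60. *Akap4*, the X-linked scaffold of the fibrous sheath, stood at 1019.7, 1182 and 970.1 in PreL and 931 and 1006 in LZ and did not pass the test (log2 fold change -0.12, SE 0.23, adjusted p = 0.714). Tail genes outside this list, counted with the spermatid markers, did not all rise: *Tekt1* was higher, and *Odf1* and *Smcp* were not called.

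X-box motifs were found in the promoter windows of 6 of the 28 axoneme genes with a RefSeq window: *Dnaic1*, *Dnaic2*, *Spag16*, *Wdr52*, *Tekt2* and *Hydin*. Of all 32851 windows of this length, counted singly, 1.53% hold one, and of the 10800 tested genes matched 2.31% hold one in any window. Genes with an X-box were called higher in 98 of 250 cases, which is 39.2%, and those without in 1899 of 10550, which is 18%. Lower genes made up 4% and 7.89%. Values of the 4 genes whose windows are printed above follow. *Dnaic1* stood at 44.7, 342 and 144 in PreL and 804 and 1680.5 in LZ and *Dnaic2* at 17.9, 24.2 and 17.7 in PreL and 144 and 644 in LZ (log2 fold changes 3.03 and 3.41). *Tekt2* stood at 47.0, 138 and 248 in PreL and 617 and 1210.3 in LZ and *Hydin* at 17.9, 165 and 96.0 in PreL and 549 and 1569 in LZ (2.76 and 3.55). Like nearly all genes called higher, these 4 had every LZ library above every PreL library, and LZ 3 exceeded LZ 2. The CRE letters TGACGTCA, read by CREM, were in none of the 28 axoneme genes with a window, against 3.59% of the tested genes. The MYB letters TAACNG were in 13 of these 28 genes, against 23.5%. Matches of the motifs were counted independently of each other on both strands, and no match says only that these letters are not in this window.

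Most of the listed genes of testis metabolism, many of them isozymes that the testis uses in place of the housekeeping enzyme, rose as well. Of 20 tested, 14 were higher and none was lower, with a median of 1.97, and 4 were higher without LZ 3. Not all are such isozymes: *Tpi1*, *Pfkp*, *Slc2a3* and *Hk1* are also counted among the glycolysis genes below, and all but *Hk1* were higher. *Ldhc*, the lactate dehydrogenase of germ cells, stood at 6036, 16892 and 4173 in PreL 1, 2 and 4 and 43216 and 102290 in LZ 2 and 3 (log2 fold change 3.14, SE 0.54, adjusted p = 0.00378) and at 3007, 1232 and 2314 in SPG. *Slc2a3*, a glucose transporter, stood at 1212, 3983 and 723 in PreL and 11550 and 29879 in LZ (log2 fold change 3.60, SE 0.63, adjusted p = 0.00400). *Pgam2* and *Pfkp*, enzymes of glycolysis, rose by 3.55 and 3.39, the latter with 748 bases of exons shared with *Pitrm1*. The germ-cell subunits of cytochrome c oxidase *Cox8c*, *Cox6b2* and *Cox7b2* and the testis cytochrome c *Cyct* rose by 3.20, 2.44, 1.47 and 1.43. Of 77 genes of oxidative phosphorylation tested, 6 were higher, these 3 cytochrome c oxidase subunits among them, and 2 lower, with a median of -0.15, and the ubiquitous subunit *Cox8a* had -0.18, *Cox6b1* -0.67 and *Cox7b* -0.67. Without LZ 3 none of the oxidative phosphorylation genes was higher, *Cox8c*, *Cox6b2* and *Cox7b2* included, and 4 were lower, and 1 was lower without PreL 2 or without LZ 2. *Gapdhs*, the sperm glyceraldehyde phosphate dehydrogenase, stood at 769, 976 and 495 in PreL and 737 and 704 in LZ with no change past the test. Among 20 glycolysis genes 8 were higher and 2 lower, and the higher ones included *Ldha*, the common lactate dehydrogenase (3.51), the aldolase *Aldoa* (2.09) and the phosphofructokinase *Pfkm* (3.07). The lower ones were *Gpi1* (-1.40) and *Pgk1* (-1.12), neither of them called lower without rescaling. *Ldhb*, which was higher, stood at 635, 308 and 328 in PreL and 10485 and 2132 in LZ, with its highest value in LZ 2 like the Sertoli markers, whose part in it was not tested.

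Genes of the piRNA pathway, which silences transposons and cleaves meiotic transcripts, rose in part. Of 26 tested, 10 were higher and 1 was lower, and 2 were higher without LZ 3. *Piwil1* (*Miwi*), the PIWI protein of pachytene piRNAs, stood at 758, 2568 and 495 in PreL 1, 2 and 4 and 4317 and 6305 in LZ 2 and 3 (log2 fold change 2.39, SE 0.57, adjusted p = 0.0126). *Tdrd6*, a scaffold of the chromatoid body, stood at 268, 860.1 and 435 in PreL and 3506 and 9292 in LZ (log2 fold change 3.59, SE 0.51, adjusted p = 0.00255). PreL 2 was the highest PreL library for both, and *Piwil1* was not called without PreL 1, LZ 2 or LZ 3. *Tdrd5* and *Tdrd1*, Tudor proteins of germ granules, *Pld6*, the nuclease of piRNA maturation, and *Mael* rose by 2.33, 1.44, 2.11 and 1.29. *Piwil2* (*Mili*), which acts from the fetal stage on, had 0.42, and the helicase gene *Ddx4*, whose protein marks germ cells, 0.55. *Tex15* was the lower gene (-1.04), its direction turned without rescaling, and it was not called without PreL 4 or without LZ 2. The E-box letters CACGTG were in 8 of the 19 piRNA genes with a window, against 11.5% of the tested genes matched.

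A few RNA-binding genes rose by large factors. Of 31 genes of translation control 5 were higher, a share no larger than the 18.8% of all genes tested, and none was lower, though 7 were lower without LZ 3, 1 without LZ 2, 3 without PreL 1 and 4 without PreL 2. *Ybx2* (*Msy2*), the Y-box protein that stores mRNA, stood at 494, 969 and 417 in PreL 1, 2 and 4 and 3551 and 11784 in LZ 2 and 3 (log2 fold change 3.44, SE 0.50, adjusted p = 0.00260). Its relative *Csda* (*Ybx3*) stood at 1664, 3557 and 1561 in PreL and 10704 and 25672 in LZ (log2 fold change 2.98, SE 0.42, adjusted p = 0.00255). The cytoplasmic poly(A) polymerase *Papolb* and the poly(A)-binding genes *Pabpc1* and *Pabpc2* rose by 2.38, 1.78 and 3.93. All 5 genes were also called with each library left out, except *Papolb* without LZ 3. Writers and readers of RNA methylation were not called: *Mettl3* had -0.36, *Mettl14* -0.87 and *Ythdf2* -0.10. *Nat10*, which acetylates cytidine in RNA, stood at 843, 933 and 627 in PreL and 568 and 738 in LZ in WT with overlapping ranges (log2 fold change -0.28, SE 0.29, adjusted p = 0.470).

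The X chromosome lost share in LZ. Of 560 X-linked genes tested, 8.93% were higher and 17.7% lower, the median log2 fold change being -0.48, and of 13018 autosomal genes 19.2% were higher and 7.34% lower, with a median of 0.15. X-linked genes took 2.96%, 2.68% and 3.02% of the values in PreL 1, 2 and 4 and 2.30% and 1.71% in LZ 2 and 3, after 2.96% to 3.06% in SPG. Each LZ library lay below each PreL library (exact permutation, two-sided, p = 0.1, again the lowest this design can reach), and a share does not depend on the scaling. Among the third of genes with the highest level, 34.8% of 138 X-linked genes were lower against 11.8% of 4409 autosomal ones, and among the third with the lowest level 2.58% of 233 against 2.32% of 4268. The gap between the X-linked and the autosomal median was -0.63 with all libraries, -0.43 without LZ 3 and -0.70 without LZ 2. On the calibrated values without rescaling the gap was -0.65 and no X-linked gene was called lower, while 336 were called higher, so on that scale X-linked genes rose less than autosomal ones. Of the 8 Y-linked genes tested 1 was lower.

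**Figure D5:**
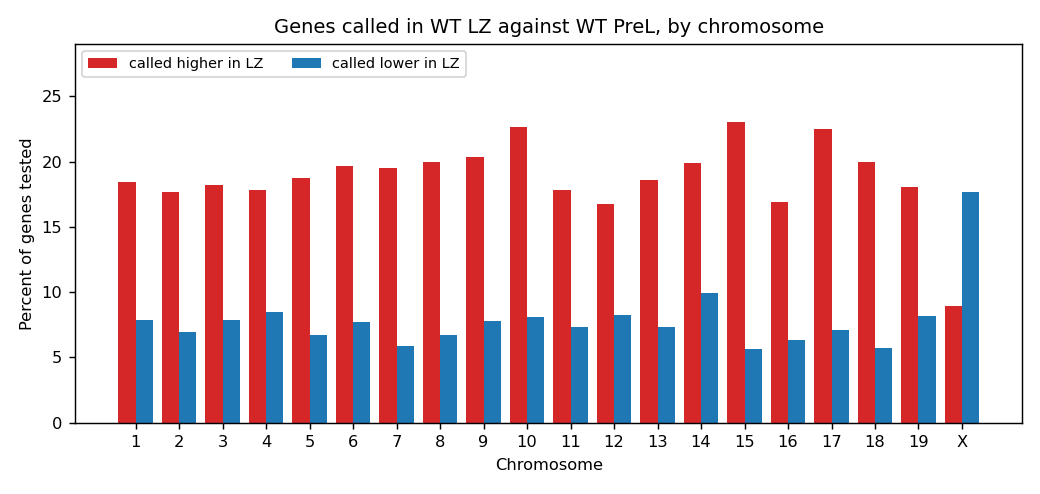
Percent of the genes tested on each chromosome that were called higher (red) or lower (blue) in LZ, with the axis from 0. Among the chromosomes shown, the X chromosome is the one on which more genes were lower (17.7%) than higher (8.93%).

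X-linked genes chosen after their values were seen show the drop in both LZ libraries. *Irak1*, a kinase of interleukin signalling, stood at 19650, 25864 and 27647 in PreL 1, 2 and 4 and 7442 and 7694 in LZ 2 and 3 (log2 fold change -1.67, SE 0.20, adjusted p = 0.00251). *Brcc3*, a deubiquitinase of the BRCA1 complex, stood at 3046, 4015 and 5123 in PreL and 1065 and 995 in LZ (log2 fold change -1.94, SE 0.25, adjusted p = 0.00251). *Gla*, a lysosomal galactosidase, and *Cask*, a scaffold kinase, were lower, with log2 fold changes of -1.75 and -1.74. The 50 X-linked genes called higher behaved otherwise, since 49 of them were higher in LZ 2 than in LZ 3, against 20.5% of the autosomal genes called higher. Without LZ 2 the number of higher X-linked genes was 7, without LZ 3 it was 30 and without PreL 1 it was 30. *Tmsb4x*, thymosin beta 4, stood at 1290.3, 1442 and 978 in PreL and 6549 and 2199.7 in LZ and the Sertoli marker *Tsx* at 186, 184 and 121 in PreL and 2361 and 701 in LZ, and LZ 2 is also the library in which the Sertoli markers were highest. Their part in these X-linked genes was not tested.

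Several X-linked housekeeping genes have an autosomal retrocopy that is expressed in spermatocytes, and such pairs were compared. *Pgk1* (X) stood at 2639, 2353 and 2501 in PreL 1, 2 and 4 and 1142 and 1142 in LZ 2 and 3 (log2 fold change -1.12, SE 0.20, adjusted p = 0.00428), and its retrocopy *Pgk2* on chromosome 17 at 1214, 1674 and 841 in PreL and 2089.8 and 3693 in LZ (log2 fold change 1.21, SE 0.34, adjusted p = 0.0236). One gene fell as the other rose, though *Pgk2* was not called without PreL 1, PreL 4 or LZ 3. *Cetn2* (X), centrin 2, had -0.97 and its retrocopy *Cetn1* rose from 1371, 3082 and 927 to 9230.3 and 21091 (log2 fold change 3.14, SE 0.48, adjusted p = 0.00285). *Rpl10* (X), a ribosomal protein, had -0.68 and its retrocopy *Rpl10l* rose from 1114, 1391 and 889 to 4496 and 7307 (log2 fold change 2.35, SE 0.28, adjusted p = 0.00251). All of these retrocopies were called higher, and *Pgk1* alone of their X-linked partners was called lower. *Pdha1* (X) of the pyruvate dehydrogenase had -0.23 and *Pdha2* rose by 2.38 on the log2 scale, but was not called without LZ 3. Other pairs did not show this: *Utp14a* (X) fell (-1.41) and *Utp14b* had 0.18, *Ubl4* (X) fell (-1.19) and *Ubl4b* had -0.07, and *Eif1ax* (X) fell (-1.01) with *Eif1a* at 0.54. *Taf7l*, an X-linked germ-cell factor of the TFIID complex, fell as well (-1.03) and its autosomal relative *Taf7* had -0.28. Further listed pairs were *Rbmx* and *Rbmxl2*, *Cstf2* and *Cstf2t*, *Cul4b* and *Cul4a*, *Rpl36a* and *Rpl36al*, and *Tbl1x* and *Tbl1xr1*. In none of them was the autosomal gene called, and of the X-linked genes only *Tbl1x* was lower. The list these genes were taken from also holds genes outside such pairs, among them *Pabpc1* and *Pabpc2*, and of its 35 tested members 6 were higher, those included, and 6 lower. Without rescaling none of the X-linked genes of the pairs was lower, and retrocopies share sequence with their parent gene, so reads may have been assigned to the wrong member.

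Some chromatin genes were lower relative to the other transcripts. Of 25 genes of DNA methylation, Polycomb and histone H3 lysine 9 methylation, 6 were lower and 2 higher, and none was lower without rescaling. *Suz12*, a core subunit of the Polycomb complex PRC2, stood at 7796, 7857 and 8996 in PreL 1, 2 and 4 and 2802 and 4348 in LZ 2 and 3 (log2 fold change -1.23, SE 0.22, adjusted p = 0.00452). *Dnmt3a* and *Dnmt1*, DNA methyltransferases, *Eed* of PRC2, *Tet3*, a dioxygenase of methylcytosine, and *Suv39h2*, a lysine 9 methyltransferase, had -1.31, -1.13, -1.01, -1.10 and -1.10. *Pcgf6* of a variant PRC1 and *Ehmt2* (*G9a*) rose by 1.59 and 1.33, and neither was called without LZ 3. Of 13 histone variant genes 2 were higher and 2 lower, against 18.8% and 7.8% of all genes tested. *H2afy*, macroH2A1, which coats the sex body, rose from 593, 1035 and 624 to 2588 and 2781 (log2 fold change 1.87, SE 0.29, adjusted p = 0.00279). *H2afx*, which is phosphorylated at breaks and on the sex body, stood at 848, 841 and 816 in PreL and 1441 and 1866 in LZ, just under the fold threshold (log2 fold change 0.97, SE 0.23, adjusted p = 0.0139). *H3f3b*, a gene of histone H3.3, stood at 367680, 441460 and 498440 in PreL and 116470 and 177980 in LZ (log2 fold change -1.59, SE 0.28, adjusted p = 0.00427), and the linker histone *H1f0* had -1.61. Neither of them was called lower without rescaling. The replication histones were poorly measured, since their mRNA lacks the poly(A) tail by which the library method primes, and 21 of 68 in the table passed the filter, with 5 higher, 1 without LZ 3, 2 without LZ 2 and 3 without PreL 1.

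Genes of DNA damage signalling were in part lower. Of 26 tested, 5 were lower and 1 was higher (*Tex264*, not called without PreL 2, without PreL 4 or without LZ 3), and none was lower without rescaling. *Rnf168*, the ubiquitin ligase that spreads the damage mark, stood at 5313, 7293 and 6955 in PreL 1, 2 and 4 and 1456 and 2236 in LZ 2 and 3 (log2 fold change -1.83, SE 0.24, adjusted p = 0.00251). *Atm*, the kinase that answers double-strand breaks, stood at 5957, 5398 and 7500.4 in PreL and 2384 and 2666 in LZ (log2 fold change -1.30, SE 0.21, adjusted p = 0.00301). *Brca1* and its partner *Bard1* had -1.38 and -1.21, and the checkpoint kinase *Chek1* -1.13. *Mdc1*, which carries the mark along the sex chromosomes, stood at 2744, 3087 and 2635 in PreL and 2446 and 4702 in LZ and was not called. Ribosome biogenesis gave 6 lower and 2 higher of 46, with nucleolin (*Ncl*) at -1.11 and *Polr1b* of RNA polymerase I at -1.29, and its catalytic subunit *Polr1a* at 2.02, which was not called without LZ 3. Of 83 cytosolic ribosomal protein genes 1 was higher (*Rpl10l*) and 1 was lower (*Rpl7l1*, -1.49), with a median of -0.32, and the lower ones numbered 5 without LZ 3, 2 without LZ 2 and 3 without PreL 1, the higher ones 3 without LZ 2 and 2 without PreL 2. Among 23 heat shock genes 5 were higher, a share near the 18.8% of all genes tested, among them *Hspa2*, the chaperone of spermatocytes, at 2813, 5478 and 2461 in PreL and 13025 and 23780 in LZ (log2 fold change 2.39, SE 0.36, adjusted p = 0.00279).

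The largest changes were named by size, among called genes that averaged 100 reads or more and whose libraries did not overlap between the stages. *Acr*, the acrosomal protease acrosin, stood at 49.2, 99.3 and 40.4 in PreL 1, 2 and 4 and 1504 and 3986 in LZ 2 and 3 (log2 fold change 5.16, SE 0.52, adjusted p = 0.00251). *Aqp9*, a water and glycerol channel, stood at 22.4, 43.6 and 35.4 in PreL and 655 and 1988 in LZ (log2 fold change 4.75, SE 0.56, adjusted p = 0.00251), and it had no read in any SPG library. *Prps1l1*, a testis form of phosphoribosyl pyrophosphate synthetase, stood at 141, 431 and 106 in PreL and 3232 and 8198 in LZ (log2 fold change 4.71, SE 0.58, adjusted p = 0.00251). The other higher genes of this kind, *CK137956*, *Speer1-ps1*, *1700047G03Rik*, *Ccdc42*, *Spag8*, *4933434I20Rik*, *Slc30a3*, *Lmf1* and *Pou5f2*, had log2 fold changes from 4.63 to 5.13, and LZ 3 was the higher LZ library for all of them. *1700047G03Rik*, *Ccdc42*, *Spag8*, *4933434I20Rik*, *Slc30a3* and *Lmf1* had 3 reads or fewer in a PreL library, so their fold depends on the pseudocount.

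Among the largest decreases, *Liph*, a lipase that makes lysophosphatidic acid, stood at 1346, 1892 and 2087 in PreL 1, 2 and 4 and 158 and 285 in LZ 2 and 3 (log2 fold change -2.98, SE 0.33, adjusted p = 0.00251). *Bloc1s3*, a subunit of the BLOC-1 complex of lysosome-related organelles, stood at 11148, 16577 and 18762 in PreL and 1378 and 3057 in LZ (log2 fold change -2.88, SE 0.34, adjusted p = 0.00251). *Xaf1*, an inhibitor of anti-apoptotic proteins, stood at 19997, 35360 and 36191 in PreL and 3983 and 6329 in LZ (log2 fold change -2.55, SE 0.30, adjusted p = 0.00251). For these genes each PreL library was above each SPG library and each LZ library was below both, with LZ 2 the lower of the LZ libraries. *Tmem88b*, *Prr5l*, *Psmb11*, *Krt222*, *Slc17a5*, *6330406I15Rik*, *F630042J09Rik* and the non-coding *Gm16157* had log2 fold changes from -3.12 to -2.52. *Cd163*, a scavenger receptor known from macrophages, stood at 1335, 2052 and 1928 in PreL and 211 and 359 in LZ (log2 fold change -2.62, SE 0.32, adjusted p = 0.00251). On the calibrated values without rescaling, 15 genes of the whole table were lower in LZ, and *Liph*, *Bloc1s3*, *Tmem88b* and *Gm16157* were among them, with -1.19, -1.05, -1.09 and -1.09. Of the other 11, *Ptprc*, *C1qc*, *Ccl2*, *Ccl12*, *Cxcl2*, *Cxcr6*, *Pf4* and *S100a4* are known from blood or immune cells. *Dsg2*, a desmosomal cadherin, stood at 208, 363 and 184 in PreL and 13.2 and 20.8 in LZ, and *Glipr1* and *Gm9199* had no or few reads in LZ. These 15 genes were singled out after their values were seen.

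The immune genes of that group were low in all libraries. Macrophage markers summed to 1149, 1173 and 2051 in PreL 1, 2 and 4 and 880.1 and 899 in LZ 2 and 3, with 6 of 11 tested lower and none higher, and the pan-leukocyte gene *Ptprc* stood at 119, 150.2 and 248 in PreL and 10.3 and 17.0 in LZ. *C1qc*, counted among the 6, passed the filter through PreL, with 17, 41 and 36 reads there and 0 and 1 in LZ. The count of lower macrophage markers was 1 without LZ 2, 2 without LZ 3, 4 without PreL 2 and 3 without PreL 4. Sertoli markers gave 18 higher of 20, 7 without LZ 2, 15 without LZ 3, 11 without PreL 1 and 12 without PreL 4. *Inha*, the inhibin alpha chain, stood at 69.3, 121 and 119 in PreL 1, 2 and 4 and 3226 and 591 in LZ 2 and 3 (log2 fold change 3.66, SE 0.64, adjusted p = 0.00394). *Cldn11*, the claudin of the blood-testis barrier, stood at 224, 80.0 and 114 in PreL and 2594 and 719 in LZ (log2 fold change 3.33, SE 0.59, adjusted p = 0.00406), and *Amhr2*, the receptor of anti-Müllerian hormone, at 105, 107 and 88.4 in PreL and 1923 and 619 in LZ (log2 fold change 3.33, SE 0.49, adjusted p = 0.00274). The excess was thus larger in LZ 2 than in LZ 3 but present in both. Of 10 Leydig markers 5 were higher (1 without LZ 2, 2 without LZ 3, 2 without PreL 1 and 3 without PreL 4), and the steroidogenic enzyme gene *Cyp17a1*, a defining marker, had 1.67 and was not called. Peritubular markers gave 2 higher of 9, none without PreL 1 or without LZ 2 and 1 without PreL 2 or without LZ 3, and *Myh11*, *Des* and *Cnn1* did not reach the filter.

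Transcripts of spermatids, cells that form only after both meiotic divisions, were measured in every group. Their markers summed to 14738, 7816 and 11453 in SPG, and to 30545, 38652 and 24545 in PreL 1, 2 and 4 and 43362 and 48800 in LZ 2 and 3. *Prm1*, protamine 1, stood at 6351, 5432 and 3764 in PreL and 6035 and 4594 in LZ (log2 fold change 0.06, SE 0.25, adjusted p = 0.878), and *Tnp2*, a transition protein, at 5995, 9171 and 4704 in PreL and 6118 and 4373 in LZ (log2 fold change -0.30, SE 0.29, adjusted p = 0.440). The PreL and LZ ranges of both genes overlapped. Of 27 spermatid markers 8 were higher (3 without LZ 3, 4 without LZ 2 and 11 without PreL 2), among them *Tekt1*, another tektin of the flagellum (4.23), *Spaca1* and *Spaca3* of the acrosome (2.70 and 2.63) and *Odf2* of the outer dense fibres (1.78), and none was lower. Of the sums above, *Odf2*, also counted among the axoneme genes, held 3502, 4657 and 3408 in PreL and 9369.5 and 18306 in LZ. *Tekt1* held 235, 581 and 53.1 in PreL and 2533.5 and 6070.5 in LZ, so the higher LZ sums came in large part from these tail genes. Beside the rise of the axoneme genes, *Prm1*, *Prm2*, *Tnp1* and *Tnp2*, the defining markers of late spermatids, had log2 fold changes of 0.06, -0.26, -0.68 and -0.30.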

How the data were processed

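RNA of sorted cells was amplified by Smart-seq2 with ERCC spike-in RNA and sequenced as paired ends. Per the labels and the study's methods, the authors trimmed reads, aligned them to mm10, counted those that mapped uniquely with HTSeq 0.11.2 and deposited a signal per gene, the count calibrated by spike-in and cell input. The submitters' processing notes also name mm9, TopHat2 2.1.1, Cufflinks 2.2.1 and DESeq2. Each deposited column was divided by its smallest value above 0, which gave whole reads for 100% of the values of each library. Size factors (median of ratios, 5 libraries) were taken out of the deposited values, and genes averaging 10 reads or more were tested on log2(value + 10) with limma 3.58.1 (R 4.3.3, trend, Benjamini-Hochberg, called when the adjusted p was under 0.05 and the log2 fold change beyond 1 in size). edgeR 4.0.16 and DESeq2 1.42.0 on the recovered reads were alternatives, as were other scalings, pseudocounts, filters and libraries left out. The script was tested on simulated data. Single values were compared by exact permutation over the 10 groupings of the libraries. The study's methods use DESeq2 with the same thresholds.

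Members and gene lists were chosen with earlier results of these data known. Named genes were the stage markers, per list up to 4 called members with the largest change, the 12 largest changes per direction among genes averaging 100 reads or more without overlap of the groups, X-autosome pairs and *Nat10*. Other list members were named for their role after their values were seen. A few genes are counted in their lists but not reported here by name. Promoter windows were matched by symbol for 10800 of the 13759 tested genes. Depth is given as recovered reads.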

Additional observations from a re-analysis of the deposited data

How the results depend on the processing

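The number of calls changed with the scaling and with LZ 3. On the calibrated values without rescaling 10992 genes were higher and 15 lower, with 336 and 0 X-linked genes. With each library left out in turn, 797 to 2372 genes were higher, the lowest number without LZ 3, and 878 to 1025 lower, 7 to 35 X-linked genes were higher, the lowest without LZ 2 and with 30 without PreL 1 or LZ 3, and the X-linked minus autosomal median was -0.70 to -0.43. Without a fold threshold 1959 genes were lower. X-linked higher genes numbered 29 with a pseudocount of 1 and 29 when 50 reads on average were required. DESeq2 called 2582 higher and 1188 lower, edgeR 2227 and 1088, and the fit of all 8 WT libraries 2867 and 985. Of the 214 genes whose fold change is given in the text, 125 kept their direction and their side of the threshold with each library left out. A single LZ library was assumed to vary like the PreL libraries. No paired analysis was possible because PreL and LZ share only replicate number 2. With 3 and 2 libraries an exact permutation test cannot go below p = 0.1, and genes with few reads were limited by depth. Genes lower relative to the other transcripts that turned to a positive log2 fold change without rescaling were, by value, *Cdc6* 0.043, *Tyms* 0.071, *Wdhd1* 0.24, *Clspn* 0.33, *Lig1* 0.35, *Fen1* 0.42, *Cdt1* 0.48, *Pole* 0.57, *Pole2* 0.42, *Prim1* 0.64, *Rrm2* 0.70, *Mcm2* 0.60, *Mcm3* 0.69, *Mcm4* 0.46, *Mcm6* 0.82, *Ccne2* 0.44, *Ccnd1* 0.54 and *Cdc25a* 0.64. The next were *Mybl2* 0.53, *Mki67* 0.49, *Incenp* 0.60, *Syce2* 0.63, *Trip13* 0.75, *Mei4* 0.65, *2410076I21Rik* 0.56, *Rad54l* 0.32, *Brca1* 0.44, *Rpa3* 0.50, *Tex11* 0.82, *Gpi1* 0.43, *Pgk1* 0.70, *Tex15* 0.79, *Irak1* 0.16, *Gla* 0.076, *Cask* 0.053 and *Utp14a* 0.40. The next were *Ubl4* 0.63, *Eif1ax* 0.82, *Taf7l* 0.80, *Suz12* 0.60, *Dnmt3a* 0.51, *Dnmt1* 0.70, *Eed* 0.82, *Tet3* 0.70, *Suv39h2* 0.72, *H3f3b* 0.25, *H1f0* 0.21, *Atm* 0.53, *Bard1* 0.61, *Chek1* 0.70, *Ncl* 0.72, *Polr1b* 0.53, *Rpl7l1* 0.35 and *Lin28b* 0.45. The next were *Cyp51* 0.78, *Hsd17b7* 0.58 and *Btg2* 0.65. Genes not called that turned the same way were *Mcm5* 1.08, *Gm1564* 1.10, *Ythdc2* 1.16, *Dazl* 1.23, *Mcm7* 1.70, *Top2a* 1.02, *Ccna2* 1.08, *Bub1* 1.60, *Sycp1* 1.60, *Smc1b* 1.11, *Stag3* 1.75, *Ccdc36* 1.24, *Prdm9* 1.10, *Zcwpw1* 1.30, *Dmc1* 1.21, *Sun1* 1.23, *Rfx3* 1.75 and *Akap4* 1.70. The next were *Cox8a* 1.64, *Cox6b1* 1.16, *Cox7b* 1.14, *Mettl3* 1.44, *Ythdf2* 1.73, *Nat10* 1.53, *Rpl10* 1.16, *Pdha1* 1.53, *Ubl4b* 1.71, *Taf7* 1.55, *Tnp2* 1.53, *Prm2* 1.57, *Tnp1* 1.15 and *Egfl7* 1.35.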

Other observations

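Few markers of spermatogonia were called between PreL and LZ. Of 15 tested markers of undifferentiated spermatogonia, 2 were higher and none was lower, with a median log2 fold change of 0.73. None was higher without PreL 1 or without LZ 2, and 1 was without LZ 3. The higher genes were *Ret* and *Id4*. *Ret*, the receptor of the niche factor GDNF, stood at 4.47, 14.5 and 2.53 in PreL and 179 and 58.5 in LZ and *Id4*, an inhibitor of differentiation, at 217, 618 and 131 in PreL and 827 and 1174 in LZ. Among 14 markers of differentiating spermatogonia, 2 were higher and 3 lower, *Stra8* and *Dnmt3a* among the latter. None of these was higher without PreL 4, and 1 was with any other library left out. *Lin28b*, a regulator of let-7 miRNAs, stood at 1970.1, 2074 and 1993 in PreL and 625 and 959 in LZ (log2 fold change -1.37, SE 0.25, adjusted p = 0.00442). LZ 3 exceeded LZ 2 for 3 of the 15 and 4 of the 14 markers, and the Sertoli markers were also highest in LZ 2.

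Cholesterol synthesis gave 2 higher and 2 lower of 21 genes tested, against 18.8% and 7.8% of all genes tested. None was higher without PreL 4 or without LZ 3, and 1 was higher and 1 lower without PreL 2 or without LZ 2, with 1 lower without LZ 3. *Cyp51* and *Hsd17b7*, enzymes of the later steps, had -1.04 and -1.22 on the log2 scale. The X-linked isomerase gene *Ebp* was higher, at 127, 12.1 and 0 in PreL and 501 and 169.9 in LZ, again with its highest value in LZ 2. Immediate early genes, which respond to cell handling, gave 1 lower (*Btg2*, -1.17) and none higher of 18, and LZ 3 exceeded LZ 2 for none of them. None was lower without LZ 3, 2 were without LZ 2, and 1 was higher without PreL 4. Of 9 endothelial markers 1 passed the filter (*Egfl7*, -0.43, not called).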
